A study of Homo sapiens with 6 samples.

Results

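Reticulons are membrane proteins that bend the endoplasmic reticulum into tubules, and the product of RTN4, Nogo, is also a brake on axon growth that sits in myelin. The 10 genes described here are the reticulons RTN1, RTN2, RTN3 and RTN4, the Nogo receptor RTN4R with its homologues RTN4RL1 and RTN4RL2, and the co-receptors LINGO1, NGFR and TNFRSF19. They were taken as every probe set in the deposited HG-U133 Plus 2.0 table that the platform annotation gives to exactly 1 of these genes. This gave 18 probe sets of 41751 in the table, for 10 of 18338 genes, and 0 probe sets that name 1 of the 10 genes together with another gene. Counts of probe sets per gene, and shares of all probe sets or genes, refer to this table and not to the whole array. The family was selected on measured values, the fall of RTN1 and the rise of LINGO1 in the comparison of the myocilin with the control line. All values of this comparison are therefore a description, and which genes passed the threshold is no independent support for any of them.

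The study set a stable Tet-On HEK293 line carrying a myocilin vector (3 arrays) against a stable Tet-On HEK293 line carrying a control vector (3 arrays). HEK293 is an established cell line from human embryonic kidney, and Tet-On lines express the inserted gene once doxycycline is added. One protocol text serves both lines and names 0.2 or 1 µg/ml doxycycline for 48 h, with hygromycin B and G418 in the medium, but the dose behind each array is not given, and a description naming the drug stands on the myocilin samples only. Each vector is represented by 1 stable line, so an effect of myocilin, another difference between the lines and a difference in exposure to the drug cannot be told apart.

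Values are the authors' log values, read as log2 and centred, so that 0 is a reference level no source states. They compare arrays for 1 probe set and give no level that could be set against another gene's, and they do not show whether a transcript lay above background or whether the defining transcripts of HEK293 cells were present. Every array had a median of 0, and the SD over probe sets was 0.17 to 0.20. Correlations over probe sets were 0.51 to 0.61 between myocilin arrays, 0.41 to 0.46 between control arrays and -0.24 to -0.01 between the lines. MYOC, the induced gene, read 0.21, 0.20 and 0.24 in the myocilin line and -6.71, -8.32 and -8.29 in the control line, in the direction of the labels. With 3 arrays per line, the number of arrays limits the precision.

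In the best known pathway of this family, Nogo binds RTN4R on the neuron, a receptor with leucine-rich repeats that is anchored by a lipid and has no part inside the cell. LINGO1 and a member of the TNF receptor superfamily, NGFR or TNFRSF19, carry the signal across the membrane to RhoA and its kinase ROCK, and the growth cone collapses. All reticulons share a C-terminal domain with a pair of long hydrophobic stretches that wedge into the membrane, while their N-terminal parts differ between genes and between transcripts of 1 gene. HEK293 cells are not neurons, and the reticulons' work in the endoplasmic reticulum is common to all cells.

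RTN1 had the largest difference of the 10 genes, and RefSeq gives it 3 transcript starts in GRCh38.p14, whose upstream windows are shown because transcripts from different starts carry different N-terminal parts. Promoter windows were at hand for 7 of the 10 genes, 26 windows in all, some of which overlap. Each sequence below is the 250 bases before a start on the minus strand of chromosome 14, written 5′ to 3′, with every CpG dinucleotide in capitals. Numbered along the gene, the windows lie at chr14:59870777-59871026 for start 1, at chr14:59630624-59630873 for start 2 and at chr14:59610140-59610389 for start 3.
RTN1 start 1: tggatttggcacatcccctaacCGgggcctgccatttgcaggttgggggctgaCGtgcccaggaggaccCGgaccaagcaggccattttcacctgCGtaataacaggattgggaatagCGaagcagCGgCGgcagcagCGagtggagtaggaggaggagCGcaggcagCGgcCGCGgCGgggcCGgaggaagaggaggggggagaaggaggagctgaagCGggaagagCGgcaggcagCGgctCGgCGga
RTN1 start 2: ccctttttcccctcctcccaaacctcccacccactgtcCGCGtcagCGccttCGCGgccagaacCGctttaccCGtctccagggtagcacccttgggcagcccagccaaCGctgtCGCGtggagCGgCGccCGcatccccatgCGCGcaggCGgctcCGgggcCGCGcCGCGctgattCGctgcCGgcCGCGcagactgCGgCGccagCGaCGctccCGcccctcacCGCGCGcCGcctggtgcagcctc
RTN1 start 3: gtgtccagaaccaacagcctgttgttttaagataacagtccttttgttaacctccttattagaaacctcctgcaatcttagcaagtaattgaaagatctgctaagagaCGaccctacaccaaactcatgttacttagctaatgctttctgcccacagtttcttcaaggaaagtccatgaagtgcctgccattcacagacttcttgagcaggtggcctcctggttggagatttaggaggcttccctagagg
Start 2 lies 240153 bases and start 3 lies 260637 bases inside the gene from start 1. The windows differ in CpG content, with 19, 34 and 1 CpG dinucleotides. Of all 35116 windows of the same length in the table, 65.4%, 93.2% and 6.06% hold fewer. The GC box GGGCGG, read on both strands, was found once before start 2 and not in the other windows of RTN1. It was present in 13 of the 26 windows, spread over all 7 genes, and in 42.6% of all windows. The CCAAT box (CCAAT) was found in 9 of the 26 windows and 32% of all, the AP-1 motif TGANTCA in 5, all of RTN4 or LINGO1, and 6.57% of all, and the ETS core CCGGAA in 1, of LINGO1, and 14.5% of all. The E-box CANNTG was found in 15 windows and 61.8% of all, and the TATA box TATAAA in 0 and 10.7% of all. No motif in this search contains another, and these matches are a description of letters, and the arrays do not show which start was used.

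Among the 10 genes, 4 passed an adjusted p of 0.05 (limma, adjusted over all 18338 genes), where 15.6% of all genes passed. Of these, 2 rose (RTN4RL1 and LINGO1) and 2 fell (RTN1 and TNFRSF19) in the myocilin line, where 8.28% of all genes rose and 7.35% fell. The median log2 difference, myocilin minus control, was 0.08 over the 10 genes and 0.02 over all genes, and the median of its absolute size was 0.20 and 0.10. The arrays of the lines did not overlap for 5 of the 10 genes, these 4 and RTN2, and for 34.9% of all genes. At the level of probe sets, 5 of 18 passed, 2 up and 3 down, where 11.0% of all 41751 probe sets passed, 5.46% up and 5.56% down. Of the 18 probe sets, 8 had lines that did not overlap, and so did 30.4% of all probe sets.

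**Figure D1:**
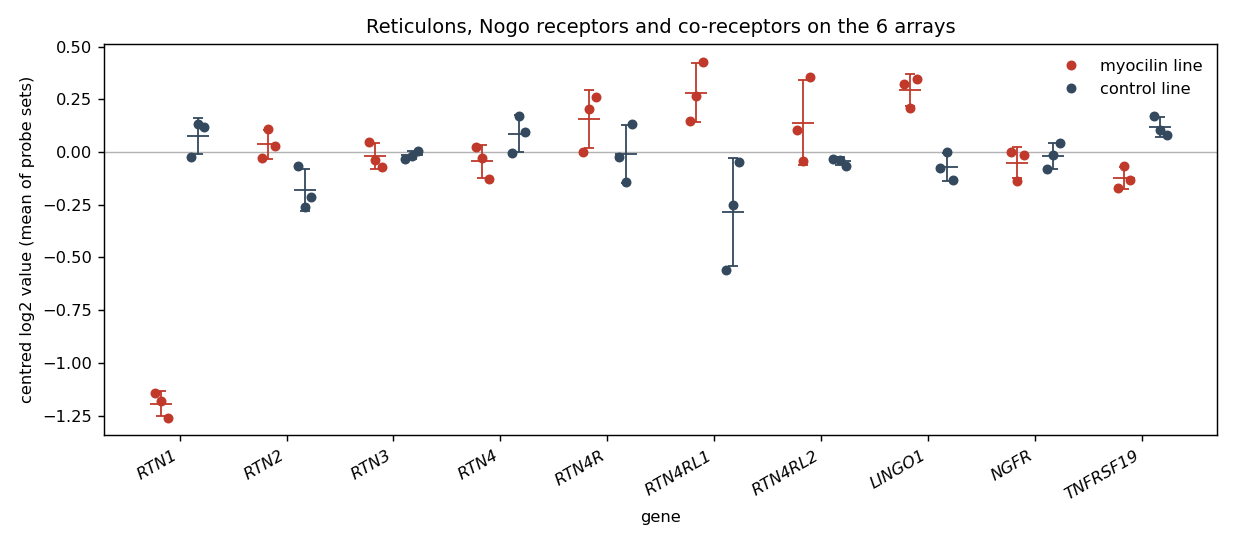
Centred log2 value of each gene (vertical axis, mean of its probe sets) on the 3 myocilin arrays (left of each pair, red) and the 3 control arrays (right, dark), with the mean and SD. RTN1 sits at -1.26 to -1.14 in the myocilin line and -0.02 to 0.14 in the control line, while the other 9 genes stay between -0.56 and 0.43.

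The reticulons are described first. RTN1, known as a marker of neuroendocrine cells and neurons, fell to -1.14, -1.18 and -1.26 in the myocilin line, against -0.02, 0.14 and 0.12 in the control line. The lowest control array lay more than 1 log2 unit above the highest myocilin array. The means were -1.19 ± 0.06 in the myocilin line and 0.08 ± 0.09 in the control line (SD, n = 3 each). The myocilin line was lower by a log2 difference of -1.27 ± 0.07 (SE), a level 2.41-fold lower in the myocilin line, and 99.9% of all genes differed by less in absolute size.

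Both probe sets of RTN1 fell, and they did so by different amounts. Probe set 203485_at read -1.13, -1.42 and -1.72 in the myocilin line and 0, 0.37 and 0.11 in the control line, a log2 difference of -1.58 ± 0.15 (SE). Probe set 210222_s_at read -1.15, -0.94 and -0.80 in the myocilin line and -0.04, -0.10 and 0.13 in the control line, a log2 difference of -0.96 ± 0.10 (SE). Within the myocilin line the probe sets ran in opposite orders over the arrays, so that 203485_at minus 210222_s_at was 0.02, -0.47 and -0.93. The SD of the gene's mean in the myocilin line, 0.06, was thus smaller than the SDs of its probe sets, 0.30 and 0.18, and the standard error of 0.07 understates how far the probe sets disagree. In the alternative test that uses each line's own variance, the gene's mean passed the threshold and neither probe set did.

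RTN2, a reticulon that is mutated in a form of hereditary spastic paraplegia, did not pass the threshold. It read -0.03, 0.11 and 0.03 in the myocilin line and -0.07, -0.26 and -0.21 in the control line, and the lines did not overlap. The log2 difference was 0.22 ± 0.07 (SE), and its probe sets gave similar differences, 0.23 and 0.20. The lines overlapped in the first of these, 204217_s_at, and did not in the other, 34408_at. Without control array 1 the difference of the gene was 0.27 and passed.

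RTN3, a receptor for the autophagy of endoplasmic reticulum tubules, read 0.05, -0.04 and -0.07 in the myocilin line and -0.03, -0.02 and 0.01 in the control line. The control arrays lay inside the range of the myocilin arrays. The log2 difference was -0.005 with a 95% interval of -0.13 to 0.12, and the probe sets gave -0.08 and 0.07. The interval leaves room for a difference of about 0.1 log2 units either way.

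RTN4, the gene of Nogo, read 0.02, -0.03 and -0.13 in the myocilin line and -0.005, 0.17 and 0.10 in the control line, with overlap. The log2 difference was -0.13 with a 95% interval of -0.28 to 0.02 and did not pass the threshold. Its 4 probe sets all gave negative values, and 1 stood apart in size. Probe set 1556049_at read -0.03, -0.19 and -0.34 in the myocilin line and 0.02, 0.07 and 0.18 in the control line, without overlap and with a log2 difference of -0.27. The other 3 gave -0.11, -0.07 and -0.07, with overlap in each, and none of the 4 passed the threshold.

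**Figure D2:**
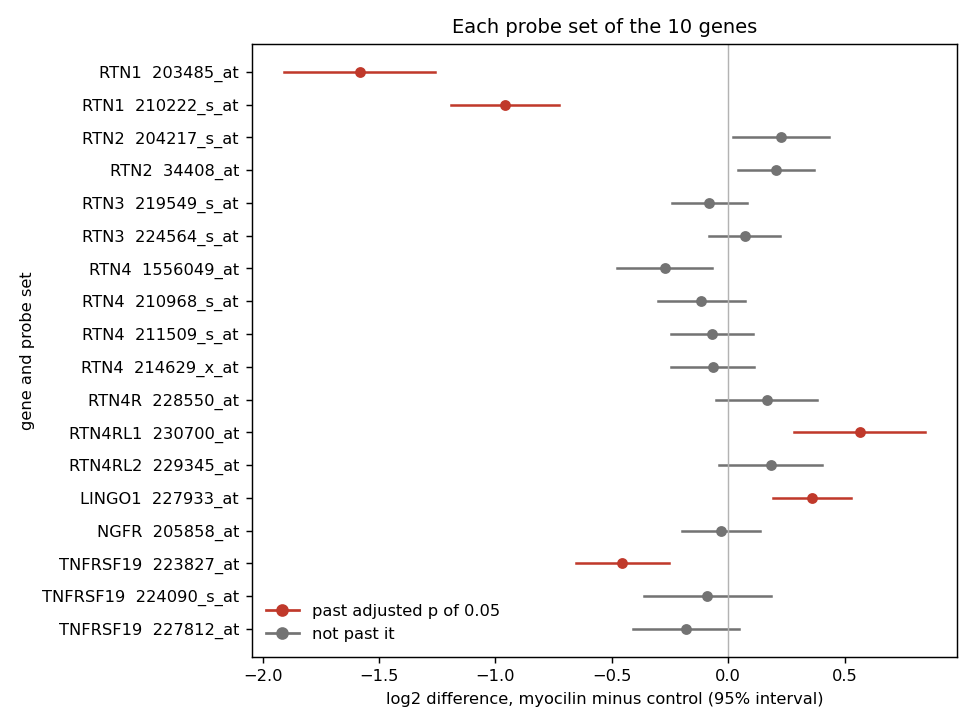
Log2 difference, myocilin minus control (horizontal axis), of each of the 18 probe sets with its unadjusted 95% interval; red probe sets passed an adjusted p of 0.05 over all probe sets. Both RTN1 probe sets lie far to the left, at -1.58 and -0.96, and only 1 of the 3 TNFRSF19 probe sets passed, at -0.45.

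Of the 3 receptors that bind ligand, RTN4RL1 rose and the other 2 did not pass the threshold. RTN4RL1, a homologue of RTN4R that in mice binds the inhibitory chondroitin sulfate proteoglycans of scar tissue, read 0.15, 0.26 and 0.43 in the myocilin line and -0.56, -0.25 and -0.05 in the control line. The lines did not overlap, though the gap between the nearest arrays was smaller than the range within either line. The means were 0.28 ± 0.14 in the myocilin line and -0.29 ± 0.26 in the control line (SD, n = 3 each). The myocilin line was higher by 0.57 ± 0.12 on the log2 scale (SE), a level 1.48-fold higher in the myocilin line. This gene has 1 probe set, 230700_at, and the call was lost without myocilin array 3, at a difference of 0.49. In the fit over probe sets it was lost without myocilin array 2, myocilin array 3 or control array 2, at differences of 0.57, 0.49 and 0.58. It was also lost in both fits in the alternative test that uses each line's own variance.

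RTN4R, the Nogo receptor itself, read 0, 0.20 and 0.26 in the myocilin line and -0.02, -0.14 and 0.13 in the control line. The lines overlapped, and the log2 difference was 0.17 with a 95% interval of -0.04 to 0.37, or 0.10 without control array 2. RTN4RL2, a homologue that binds myelin-associated glycoprotein, read 0.10, -0.04 and 0.35 in the myocilin line and -0.03, -0.04 and -0.07 in the control line. Its myocilin arrays spread widely, with an SD of 0.20 against 0.02 in the control line, and 1 of them lay within the control range. The log2 difference was 0.18 with a 95% interval of -0.02 to 0.39, and it was 0.08 without myocilin array 3 and 0.27 without myocilin array 2, past the threshold in neither.

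Of the 3 co-receptors, 1 rose, 1 fell and 1 did not pass the threshold. LINGO1, which joins RTN4R and is a brake on myelination by oligodendrocytes, read 0.32, 0.21 and 0.35 in the myocilin line and -0.08, 0 and -0.13 in the control line. All myocilin arrays lay above all control arrays. The means were 0.29 ± 0.08 in the myocilin line and -0.07 ± 0.07 in the control line (SD, n = 3 each). This is a log2 difference of 0.36 ± 0.06 (SE), or 1.28-fold. The gene has 1 probe set, 227933_at. In the fit over probe sets its call was lost without myocilin array 1, myocilin array 3 or control array 3, at differences of 0.35, 0.33 and 0.33, while in the fit over genes it was lost in the test with each line's own variance only.

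TNFRSF19, also called TROY, which can stand in for NGFR beside RTN4R and LINGO1, fell to -0.17, -0.07 and -0.13 in the myocilin line, against 0.17, 0.10 and 0.08 in the control line. The lines did not overlap, and the log2 difference was -0.24 ± 0.06 (SE). Its 3 probe sets did not move alike. Probe set 223827_at read -0.16, -0.03 and -0.21 in the myocilin line and 0.48, 0.27 and 0.22 in the control line, a difference of -0.45 that passed. Probe sets 224090_s_at and 227812_at gave -0.09 and -0.18, did not pass, and had SDs of 0.28 and 0.21 in the myocilin line, against 0.05 each in the control line. The gene's call was lost with the median of the probe sets, at -0.19, in the test with each line's own variance, and without myocilin array 1 (-0.22), myocilin array 3 (-0.24), control array 1 (-0.22) or control array 2 (-0.25).

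NGFR, the neurotrophin receptor with a death domain, read 0, -0.14 and -0.01 in the myocilin line and -0.08, -0.01 and 0.04 in the control line. The lines overlapped, and the log2 difference of -0.03 had a 95% interval of -0.17 to 0.11. A difference as large as that of LINGO1 lies outside this interval.

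**Figure D3:**
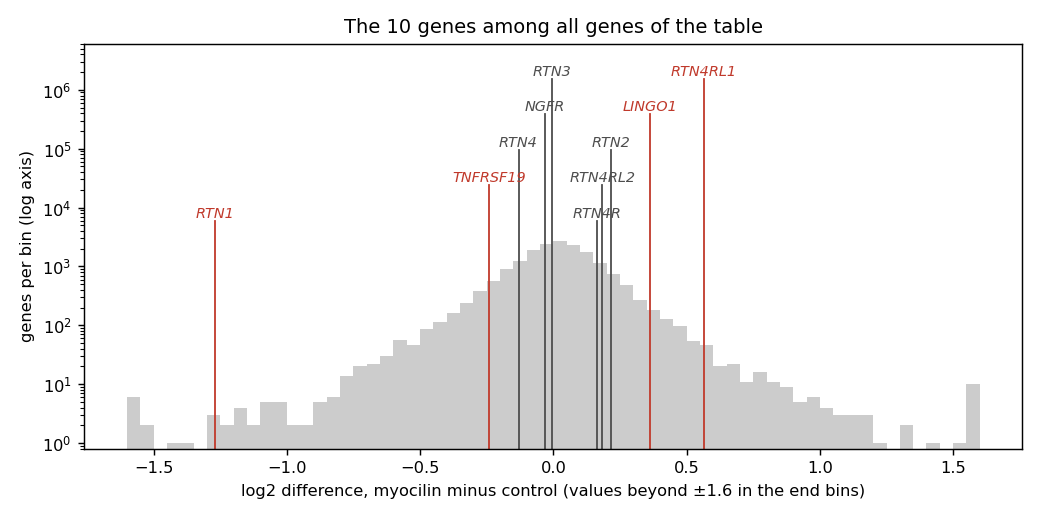
Number of genes (vertical axis, log scale) by log2 difference, myocilin minus control (horizontal axis, in bins), over all 18338 genes, with the 10 genes as lines (red where past an adjusted p of 0.05) whose heights only separate the labels. RTN1 at -1.27 lies in the far left tail, RTN4RL1 at 0.57 and LINGO1 at 0.36 in the right flank, and the other 7 genes in the bulk.

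The 10 genes lie on 8 chromosomes, and each was also set beside the median of its 50 nearest measured genes on the chromosome. For RTN1 the neighbours had a median log2 difference of -0.01, for RTN4RL1 0.08, for LINGO1 -0.09 and for TNFRSF19 0.0005. Among the neighbours of RTN4RL1 10 rose and 1 fell, and among those of LINGO1 1 rose and 7 fell. Over all genes, 8.28% rose and 7.35% fell. In the fit on values with the neighbours' median subtracted on each array, RTN1 differed by -1.25, RTN4RL1 by 0.49, LINGO1 by 0.42 and TNFRSF19 by -0.25, and all 4 passed the threshold. RTN4R lay among neighbours with a median of 0.10, of which 8 rose, and its own difference was 0.06 in that fit.

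The genes that work with these proteins were read from 6 lists. Of 83 measured genes, out of 97 listed, 15 passed the threshold, 4 up and 11 down, where 15.6% of all genes passed, 8.28% up and 7.35% down. Of these 15 genes, 4 passed the threshold with every array left out in turn, TSPAN3, BEX3, TNFRSF21 and APH1B. How many of all genes did so was not counted. For some lists and markers below, counts at an unadjusted p under 0.05 are also given. The share of all genes at that unadjusted threshold was not counted, so these counts cannot be set against it. MAG stands both in a list and among the oligodendrocyte markers given below.

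Among 22 genes that shape the endoplasmic reticulum or mark it for autophagy, 1 rose, 2 fell and 19 did not pass, with a median log2 difference of -0.03. LNPK, which steadies the junctions between tubules, fell by 0.29, and REEP1, a hairpin protein of tubules, by 0.24. REEP6, of the same family as REEP1, rose by 0.26. In the fit over probe sets, no probe set of REEP1 or REEP6 passed. The call of REEP6 was also lost with array weights and in the robust eBayes fit with trend. It was lost as well on leaving out any array but myocilin array 1, and in the test with each line's own variance. Leaving out _x_at and _s_at probe sets, or taking 1 probe set per gene, also lost it. The call of LNPK was lost on leaving out any array but myocilin array 2. Its probe sets gave -0.27, -0.24 and -0.37, and only the last passed. LNPK lay among neighbours with a median of -0.11, of which 11 fell, and minus these neighbours it differed by -0.18 and did not pass. The atlastin genes ATL1 and ATL3, whose products fuse tubules, differed by -0.11 and -0.02, and the autophagy receptor RETREG1 by 0.03.

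Among 12 other ligands, alternative receptors and LINGO relatives, limma called 0 up and 2 down (1 up and 2 down at an unadjusted p under 0.05), with a median of 0.03. TSPAN3, a tetraspanin, fell to -0.22, -0.24 and -0.29 in the myocilin line, against 0.14, 0.28 and 0.17 in the control line, a log2 difference of -0.45. PLXNA2, a plexin receptor, fell by 0.25, but its probe sets gave 0.10, -0.10 and -0.75, so the fall rests on 1 of them. The myelin ligand gene MAG differed by 0.13, LINGO2 by 0.09 and LINGO3 by 0.01, none past the threshold. OLFM1, an olfactomedin protein that binds RTN4R, differed by 0.22 and did not pass either.

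In the RhoA and ROCK arm limma called 0 of 16 genes up and 2 down (1 up and 3 down at an unadjusted p under 0.05), with a median of -0.02. The myosin light chain genes MYL12B and MYL12A fell by 0.23 and 0.20, though no probe set of either passed on its own. Both lie on chromosome 18, where 132 of 274 measured genes fell, against 7.35% of all genes, and the median difference was -0.21. Their 50 nearest genes had a median of -0.31. Minus these neighbours they differed by 0.03 and 0.06 and did not pass. RHOA differed by 0.02, ROCK1 by -0.17 and ROCK2 by -0.002, none past the threshold.

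Among 10 neurotrophins, neurotrophin receptors and NGFR adaptors, 1 rose and 1 fell, with a median of 0.02. BEX3, an adaptor that binds the death domain of NGFR, fell to -0.48, -0.45 and -0.42 in the myocilin line, against 0, -0.08 and 0.002 in the control line, a log2 difference of -0.43. RIPK2, a kinase that also binds NGFR, rose by 0.25, with probe sets at 0.36 and 0.13, and minus its neighbours it differed by 0.20 and did not pass. The receptor genes NTRK2 and NTRK3 both differed by 0.02 and BDNF by 0.001, none past the threshold.

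Among 11 TRAF genes and relatives of TNFRSF19, 1 rose and 1 fell, with a median of 0.08. TNFRSF21, a death receptor studied in neurons, rose to 0.30, 0.35 and 0.26 in the myocilin line, against -0.20, -0.11 and 0.01 in the control line, a log2 difference of 0.40. TRAF3 fell by 0.20, with probe sets at -0.33 and -0.07.

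Of 12 genes around BACE1, the APP-cleaving protease that RTN3 and RTN4 bind, 1 rose and 3 fell, with a median of -0.06. APH1B and APH1A, subunits of gamma-secretase, fell by 0.43 and 0.27, and the sheddase gene ADAM10 fell by 0.36. The probe sets of ADAM10 gave -0.54, which passed, and -0.18, which did not and had lines that overlapped, and minus its neighbours the gene differed by -0.29 and did not pass. With _x_at and _s_at probe sets left out, APH1A read -0.08 and did not pass. The gene that rose, BACE2 at 0.25, was picked with its value in view and did not pass minus its neighbours, at 0.18, and BACE1 differed by 0.07 and APP by 0.05, neither past the threshold. No probe set of BACE2 passed on its own.

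**Figure D4:**
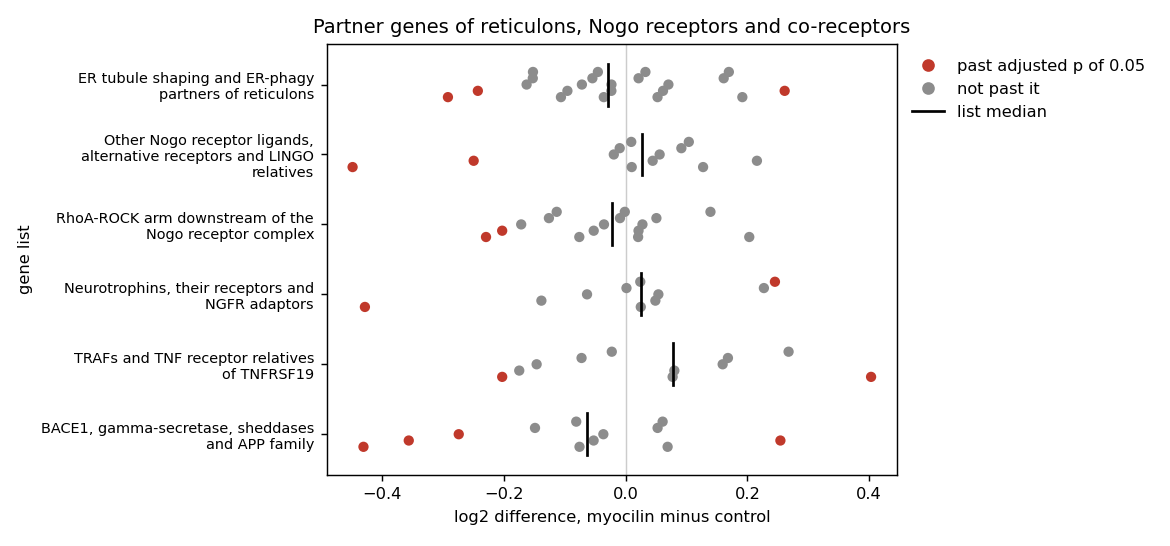
Log2 difference, myocilin minus control (horizontal axis), of each measured gene in the 6 lists of partner genes (rows), with the list median as a black bar and genes past an adjusted p of 0.05 in red. List medians lie between -0.06 and 0.08, and 15 of the 83 genes passed.

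Since RTN1 marks neurons, markers of other cell types were read beside it. Over all genes, 8.28% rose and 7.35% fell. Of 6 neuron markers 3 fell, SYT1 by 0.61, MAP2 by 0.43 and SNAP25 by 0.27, and 1 rose, RBFOX3 by 0.26, while SYP and STMN2 differed by 0.01 and -0.01. All probe sets of the 3 genes that fell were lower in the myocilin line, and 1 of each gene passed. The probe sets of RBFOX3, the marker that rose, gave 0.38 and 0.39, which both passed, and -0.002, which did not. The mean of the list was -0.12 to -0.05 on the myocilin arrays and 0.06 to 0.12 on the control arrays. None of 5 oligodendrocyte and myelin markers passed, and 0 had an unadjusted limma p under 0.05, with list means of 0.001 to 0.04 on the myocilin arrays and -0.04 to -0.01 on the control arrays. Of 4 astrocyte markers 1 fell, AQP4 by 0.32 (list means -0.11 to -0.05 on the myocilin arrays and 0.0001 to 0.05 on the control arrays). AQP4 lies on chromosome 18, whose genes were lower as given above, and 1 of its 5 probe sets passed, at -0.84, while the others gave -0.30 to -0.07. Of 4 fibroblast markers 1 rose, COL1A1 by 0.25 (list means -0.04 to 0.03 on the myocilin arrays and -0.10 to -0.03 on the control arrays). Of the 5 probe sets of COL1A1 1 passed, at 0.69, and the others gave -0.02 to 0.35. None of 3 leukocyte markers passed, and 1 had an unadjusted limma p under 0.05 (list means -0.04 to 0.18 on the myocilin arrays and -0.06 to 0.04 on the control arrays). The part of these genes in the fall of RTN1 was not tested, centred values do not show which markers are near background, and fewer cells of a kind and less RNA per cell cannot be told apart.

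The genes whose pattern over the 6 arrays was most like that of RTN1 were GLIDR, MTARC1 and CCDC80, with Pearson correlations of 0.9997, 0.999 and 0.999 and log2 differences of -0.32, -0.47 and -0.61. For LINGO1 they were PPP1R16B, KLHL17 and EHMT1, with correlations of 0.997, 0.997 and 0.996 and log2 differences of 0.23, 0.21 and 0.41. The probe sets of CCDC80 gave -1.39, -0.44 and 0.007, and those of KLHL17 gave 0.43 and -0.013. No probe set of PPP1R16B passed the threshold. Minus their neighbours, EHMT1 differed by 0.26 and passed, and KLHL17 by 0.18 and did not. The arrays form 2 lines, so this likeness mostly reads the difference between them: 1310 genes correlated above 0.9 with RTN1 and 953 with LINGO1.

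**Figure D5:**
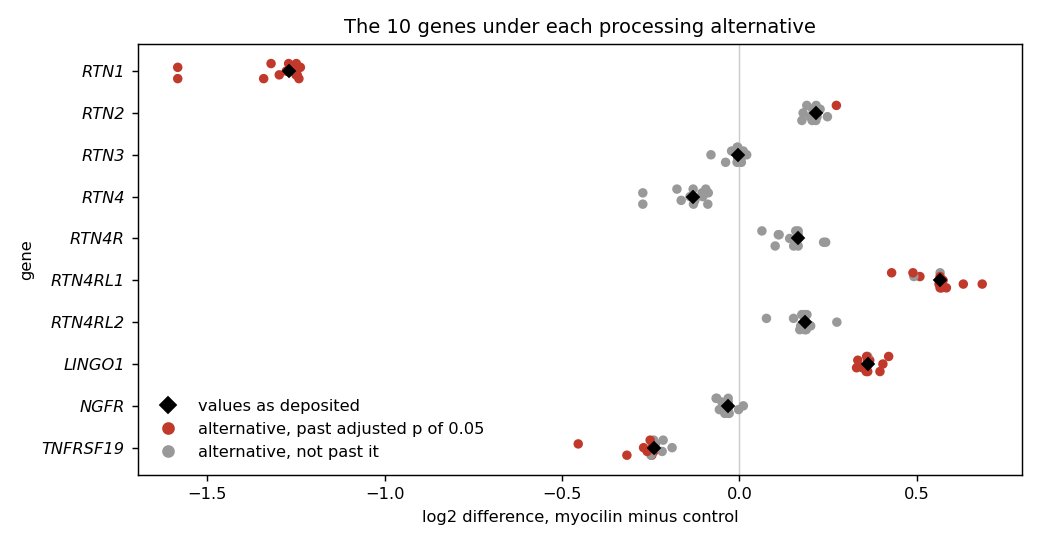
Log2 difference, myocilin minus control (horizontal axis), of each of the 10 genes (rows) on the values as deposited (diamond) and under each processing alternative (circles, red where past an adjusted p of 0.05). RTN1 stays between -1.58 and -1.24 and passes in all 15 alternatives, LINGO1 stays between 0.33 and 0.42 and passes in 14, RTN4RL1 passes in 13 and TNFRSF19 in 9.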

How the data were processed

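The authors deposited 1 table of log values, read here as log2 from its positive and negative values, with 41751 probe sets on 6 arrays. How the background was corrected, probes summarised and arrays normalised, and the log base, is not given in the sources used here. Exact zeros occur in 57.3% of probe sets, so values appear to be relative to a level per probe set, but only 4.86% of probe sets have a median over these 6 arrays within 1e-06 of 0, so that level is unknown. All arrays have a median of 0. Filters on brightness were therefore not run.

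Arrays were grouped by source name. The platform annotation gave 37460 probe sets to 1 gene, and symbols were updated through the RefSeq table of GRCh38.p14. Probe sets were averaged per gene. Lines were compared with limma 3.58.1 in R 4.3.3 (lmFit and eBayes, two-sided), fitted over all 18338 genes or all probe sets, adjusted by Benjamini-Hochberg, and called at 0.05. Differences are myocilin minus control, and 95% intervals are unadjusted. The fit was tested on simulated data. No label says that a line's arrays are of separate cultures, and the tests measure only the spread between these arrays, which may be technical. The 10 genes and the gene lists were chosen with earlier results of these data known. Named from each list were up to 3 genes past the threshold by size of difference, and for RTN1 and LINGO1 the 3 most correlated genes. Genes not past the threshold, and the markers, were named for their role. Promoter windows are from RefSeq, GRCh38.p14. Alternatives were quantile normalisation, equal array SDs, array weights, a robust eBayes fit with trend, a Welch test, leaving out _x_at and _s_at probe sets, the median or 1 probe set per gene, each array left out, and, added after seeing the data, 50 chromosomal neighbours subtracted.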

Additional observations from a re-analysis of the deposited data

How the results depend on the processing

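Of 149 values of the 10 genes under the alternatives, 139 stayed on their side of the threshold, 9 lost a call and 1 gained one, and no called value changed sign. Only the 4 called genes could lose a call. Of 15 alternatives each, RTN1 passed in 15, LINGO1 in 14, RTN4RL1 in 13 and TNFRSF19 in 9. RTN3 moved between -0.08 and 0.02 and NGFR between -0.07 and 0.01, never past the threshold. The Welch test called 1 of the 10 genes (RTN1), 0 of the 18 probe sets (6 at an unadjusted p under 0.05) and 44 of all genes, against 4, 5 and 2866 with limma. The share of all probe sets at an unadjusted Welch p under 0.05 was not counted, so the 6 cannot be set against it. With each array left out in turn, 2 to 4 of the 10 genes, 3 to 5 of the 18 probe sets and 1613 to 2220 of all genes passed, the lowest counts for the 10 genes and their probe sets coming without myocilin array 3. With _x_at and _s_at probe sets left out, where fewer genes are tested, 1878 of all genes passed. Among partner and similar genes, the direction turned for PLXNA2 (0.10) and KLHL17 (-0.013) with 1 probe set per gene by ID, and for MYL12B (0.033) and MYL12A (0.063) with neighbours subtracted. The cause of the other losses was not tested. Without brightness, a small difference cannot be told from one near background. No paired analysis was possible because the lines share no replicate numbers in the labels. The numbers that end the array titles are lower for all control arrays than for all myocilin arrays, and what they stand for is not stated. Anything that follows these numbers cannot be told apart from the line.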
